A study of Oryza sativa with 8 samples.

Results

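A set of 57 rice loci, of 34119 in the deposited table, was induced by polyethylene glycol (PEG) in wild-type seedlings and was weaker in seedlings of an SDG708 RNAi line under the same treatment. The members were chosen on their own FPKM values (fragments per kilobase of locus, scaled to a common library size). The lowest wild-type PEG library had to reach 2 FPKM and 2 times the highest untreated library. The lowest of all PEG libraries could not exceed 16 times the highest untreated library, and the highest RNAi library could reach at most 0.7 times the lowest wild-type PEG library. Because these values made the choice, the induction and the weakening are described below and carry no test.

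Transcripts were measured by polyA-selected RNA sequencing in whole 14-day-old seedlings, in 3 groups. The group 708RNAi_PEG held 3 libraries of the SDG708-knockdown line 708Ri-1-1, kept for 3 h in 20% PEG8000. The group WT_PEG held 2 libraries of the wild-type, called NIP in the series, given the same treatment, and WT_control held 3 libraries of untreated wild-type NIP. All seedlings had grown for 7 days on plates and then 7 days in liquid culture, in cycles of 10 h light (30 °C) and 14 h darkness (28 °C). The knockdown is represented by 1 line. The SDG708 transcript and untreated seedlings of the RNAi line were not analysed here, so the knockdown was not checked, and a weaker response to PEG cannot be told apart from a lower level already present before treatment.

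SDG708 is a rice histone methyltransferase of the SET-domain group, a class of enzymes that place methyl marks on proteins such as histones. PEG of high molecular weight stays outside the cells and draws water from the roots, and plants answer with transcripts for abscisic acid signalling, protective proteins, chaperones, sugar mobilisation and ion transport. Small heat shock proteins hold unfolding proteins in solution, alpha-amylases release sugar from starch, SPX proteins report the phosphate status of the cell, and potassium channels and transporters of the AKT and HAK families bring potassium into roots.

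Whole reads recovered from the FPKM values numbered between 30817969 and 49707845 per library. Whether replicates were separate plants or cultures is not stated in the labels, and p-values therefore measure only the spread between these libraries. Summed FPKM of 13 leaf photosynthesis genes ran from 11379 to 11916 in 708RNAi_PEG, from 15856 to 16825 in WT_PEG and from 28505 to 32400 in WT_control. Summed FPKM of 3 root-preferential genes ran from 50.1 to 53.8 in 708RNAi_PEG, from 63.5 to 64.3 in WT_PEG and from 422 to 455 in WT_control. The reference holds the name for 1 of the 13 leaf and 2 of the 3 root loci, so the rest of these sums stands on the lists alone. None of these marker genes was at 0 throughout. A further list of 10 seed storage protein genes, given below with R1C-Prx, differed most between the PEG groups in relative terms. Its summed FPKM ran from 60.7 to 69.7 in 708RNAi_PEG and from 2.46 to 4.78 in WT_PEG. In such bulk samples fewer cells of a type and less RNA per cell cannot be told apart, and the part of these shifts in the values below was not tested.

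The rule found 1917 PEG-induced loci under the 16-fold ceiling, and the 57 members were 2.97% of them. The median ratio of mean FPKM, 708RNAi_PEG over WT_PEG, was 1.17 over the 1917 loci (quartiles 0.993 and 1.40). It was below 1 at 494 loci and above 1 at 1423. The mirrored rule, with every 708RNAi_PEG library at least 1.43 times the highest WT_PEG library, found 316 loci, or 16.5%. Weakened induction was thus the rarer direction in this table, as the plot of ratios over all PEG-induced loci shows.

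**Figure D1:**
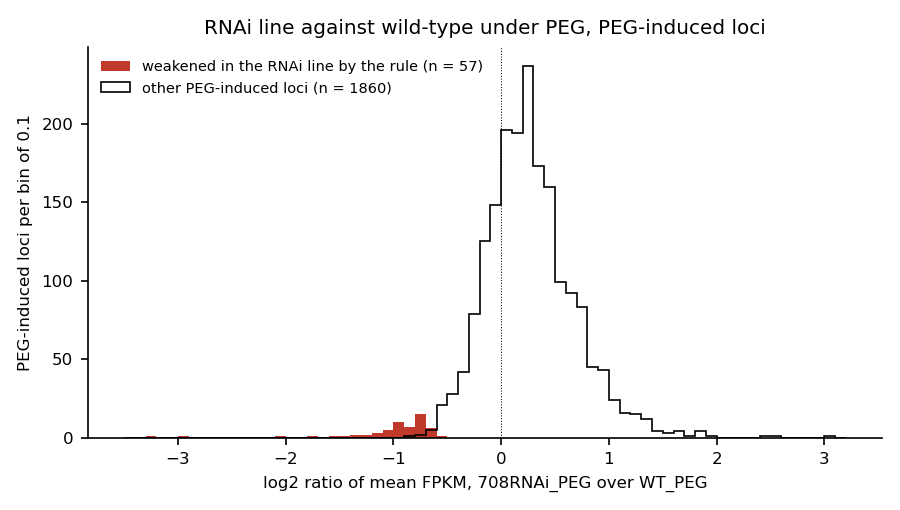
Number of PEG-induced loci (vertical axis) by the log2 ratio of mean FPKM, 708RNAi_PEG over WT_PEG (horizontal axis, bins of 0.1), with the 57 weakened loci filled and the other 1860 outlined. The members form the left edge of a distribution whose middle lies to the right of 0.

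Over the 57 members the 708RNAi_PEG mean was 0.102 to 0.686 times the WT_PEG mean, with a median of 0.537. It was at or under 0.5 at 18 members and at or under 0.4 at 7. The WT_PEG mean was 2.17 to 78.4 times the WT_control mean, with a median of 4.20, and the 708RNAi_PEG mean was 0.304 to 21.8 times it, with a median of 2.33. Most members therefore still stood above the untreated level in the RNAi line.

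How far each member returned was computed as the share of the wild-type PEG increase that was missing in the RNAi line, so that 0% is the WT_PEG level and 100% the WT_control level. The return ran from 33.6% to 144%, with a median of 62.5% and quartiles of 50.3% and 72.1%. Taken from each 708RNAi_PEG library alone, the median was 59.8%, 65.1% and 58.8%. The return was under 50% at 12 members, between 50% and 75% at 32, between 75% and 100% at 10 and over 100% at 3. The rule itself forces a part of this, since a ratio of 0.7 alone gives a return that depends on the induction. At a ratio of means of 0.7 that return had a median of 39.4%. The members exceeded it by 1.54 to 94.4 percentage points, with a median of 19.1. The rule sets the highest 708RNAi_PEG library against the lowest WT_PEG library. What it forces is therefore at least this return, and more where libraries of a group differ, so the excess over the forced return is at most these values.

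**Figure D2:**
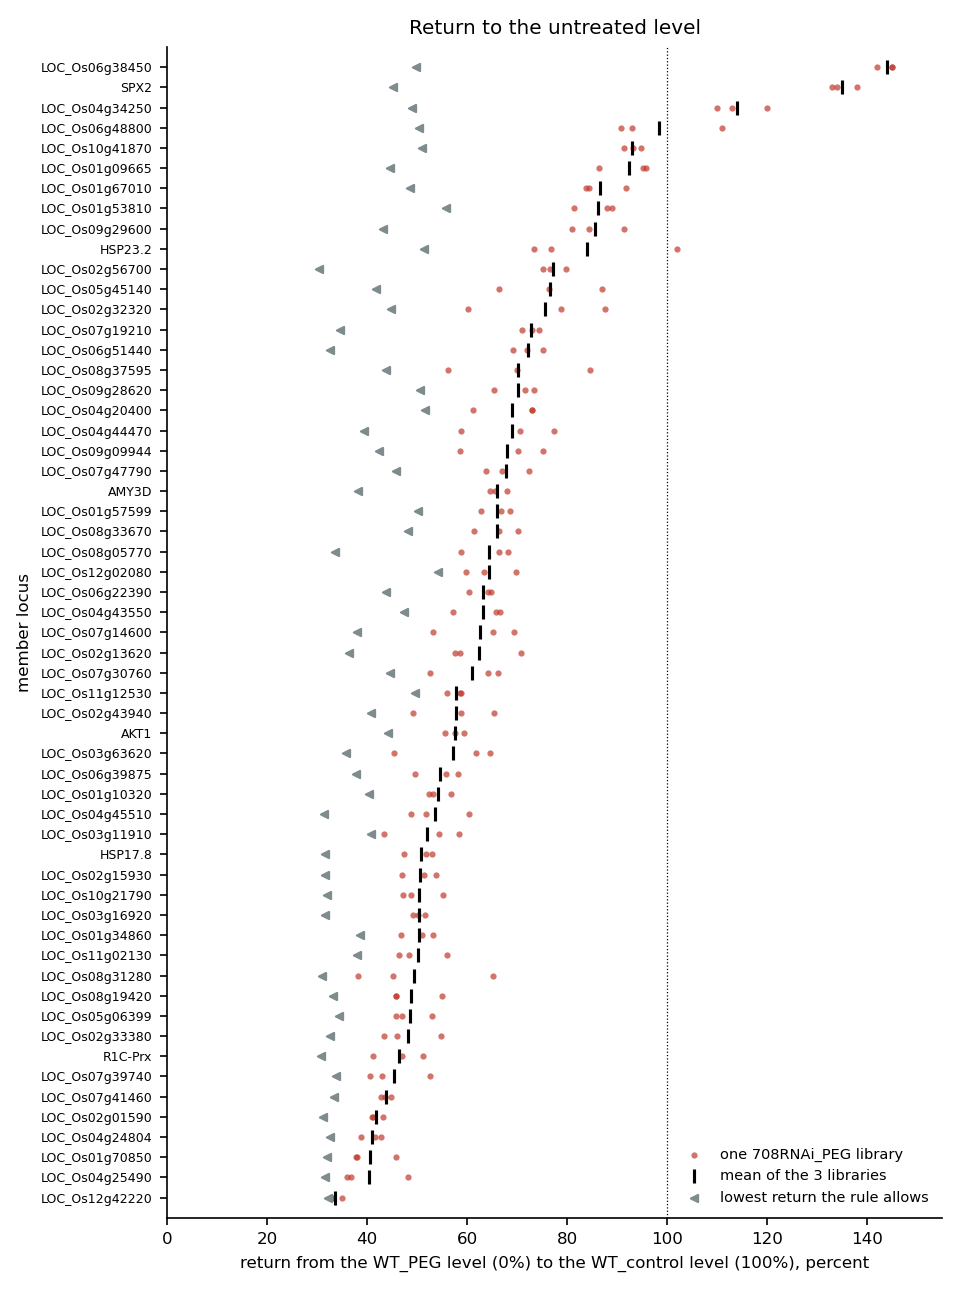
Return of each of the 57 members from the WT_PEG level (0%) to the WT_control level (100%), with each 708RNAi_PEG library as a point, their mean as a bar and the lowest return the rule allows as a triangle. At 3 loci every library lies beyond 100%, and at LOC_Os12g42220 the mean of 33.6% lies next to its triangle at 32.1%.

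The return was larger where the induction was smaller, and so was the return that the rule forces. The 28 members induced under 4-fold had a median return of 69.5% beside a forced 46.6%. The 12 members induced 4-fold to 10-fold had 59.7% beside 37.0%, and the 17 induced over 10-fold had 48.8% beside 31.6%. Among the members the ratio of 708RNAi_PEG to WT_PEG hardly followed the induction, with medians of 0.547, 0.513 and 0.547 in these 3 classes. The Spearman correlation was 0.0461 over the 57 loci, which share the WT_PEG libraries in both measures. The rule also caps the ratio at the same limit in every class. Loci with both WT_PEG libraries over the ceiling enter only through a low RNAi library. These values therefore describe the chosen members and cannot show whether weakening depends on induction.

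**Figure D3:**
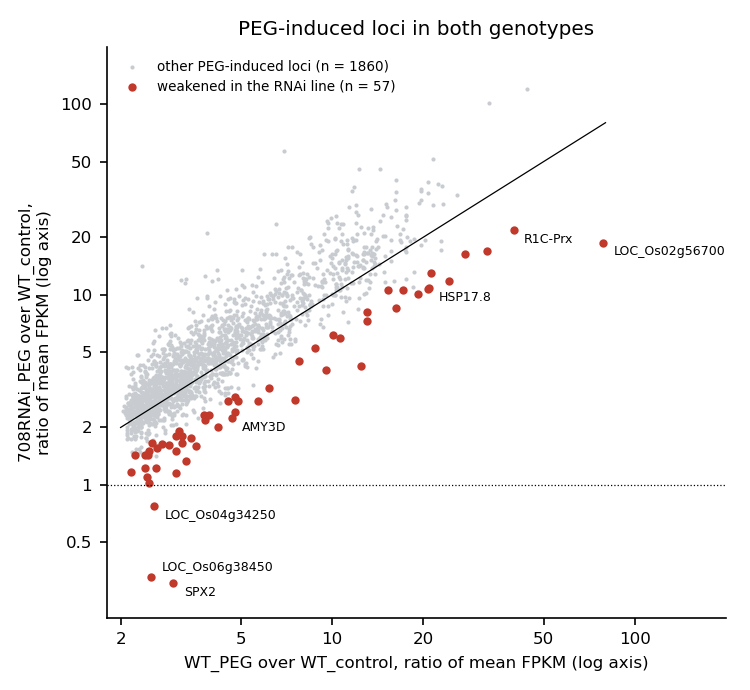
Ratio of mean FPKM, 708RNAi_PEG over WT_control (vertical, log axis), against WT_PEG over WT_control (horizontal, log axis) for the 57 members and the other 1860 PEG-induced loci, with equality as a solid line and the untreated level as a dotted line. The members run below the solid line over the whole range of induction, as the rule requires. SPX2, LOC_Os06g38450 and LOC_Os04g34250 lie below the untreated level.

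Set against the untreated seedlings, every 708RNAi_PEG library lay above every WT_control library at 50 members, or 87.7%, against 99.6% of all 1917 PEG-induced loci and 41.7% of the 20943 loci that passed the filter on low values. The groups overlapped at 4 members, which were HSP23.2, LOC_Os06g48800, LOC_Os10g41870 and LOC_Os01g09665. Every 708RNAi_PEG library lay below every WT_control library at 3, against 40.6% of all loci. All 57 members passed the filter, which needs 1 FPKM in 2 libraries and which the rule guarantees them. In the limma fit over all loci, 50 members were called higher in 708RNAi_PEG than in WT_control, beside 41.0% of all loci, and 3 were called lower, beside 40.0%. Both groups took part in the choice of members, so these counts only place them. The median difference on the log2(FPKM + 1) scale was 0.77 over the members, 1.77 over the 1917 PEG-induced loci and 0.01 over all loci tested. The scaling bears on the loci nearest the untreated level, since with equal totals of recovered reads 45 members stayed above and 9 overlapped, and the median over all loci moved to -0.16.

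The 3 loci below the untreated level included the member with the lowest ratio, SPX2 (LOC_Os02g10780, chromosome 2). SPX2 encodes an SPX-domain protein that in rice restrains PHR2, the central activator of phosphate starvation genes. Its level was 1.00, 0.726 and 0.968 FPKM in 708RNAi_PEG, 8.81 and 8.88 FPKM in WT_PEG, and 2.92, 2.75 and 3.22 FPKM in WT_control. The rule sets WT_PEG above both other groups, and of these the RNAi line under PEG was the lower, without overlap. SPX2 in 708RNAi_PEG was 0.102 times WT_PEG, a return of 135% ± 2.56 (SD, n = 3), and 0.304 times WT_control.

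LOC_Os06g38450, for which the reference used here gives no name, showed the same order of the groups. Its level was 4.73, 5.20 and 4.61 FPKM in 708RNAi_PEG, 37.1 and 37.6 FPKM in WT_PEG, and 14.4, 14.2 and 15.7 FPKM in WT_control. Its return of 144% ± 1.39 (SD, n = 3) was the largest of the 57, and its 708RNAi_PEG mean was 0.328 times its WT_control mean. LOC_Os04g34250 lay closer to the untreated level, with 1.52, 1.61 and 1.32 FPKM in 708RNAi_PEG, 5.09 and 4.83 FPKM in WT_PEG, and 1.82, 2.03 and 1.92 FPKM in WT_control. Its return was 114% ± 4.90 (SD, n = 3), and its 708RNAi_PEG mean was 0.772 times its WT_control mean. At all 3 loci the RNAi and untreated libraries did not overlap, and since both groups took part in the choice this is given without a test.

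**Figure D4:**
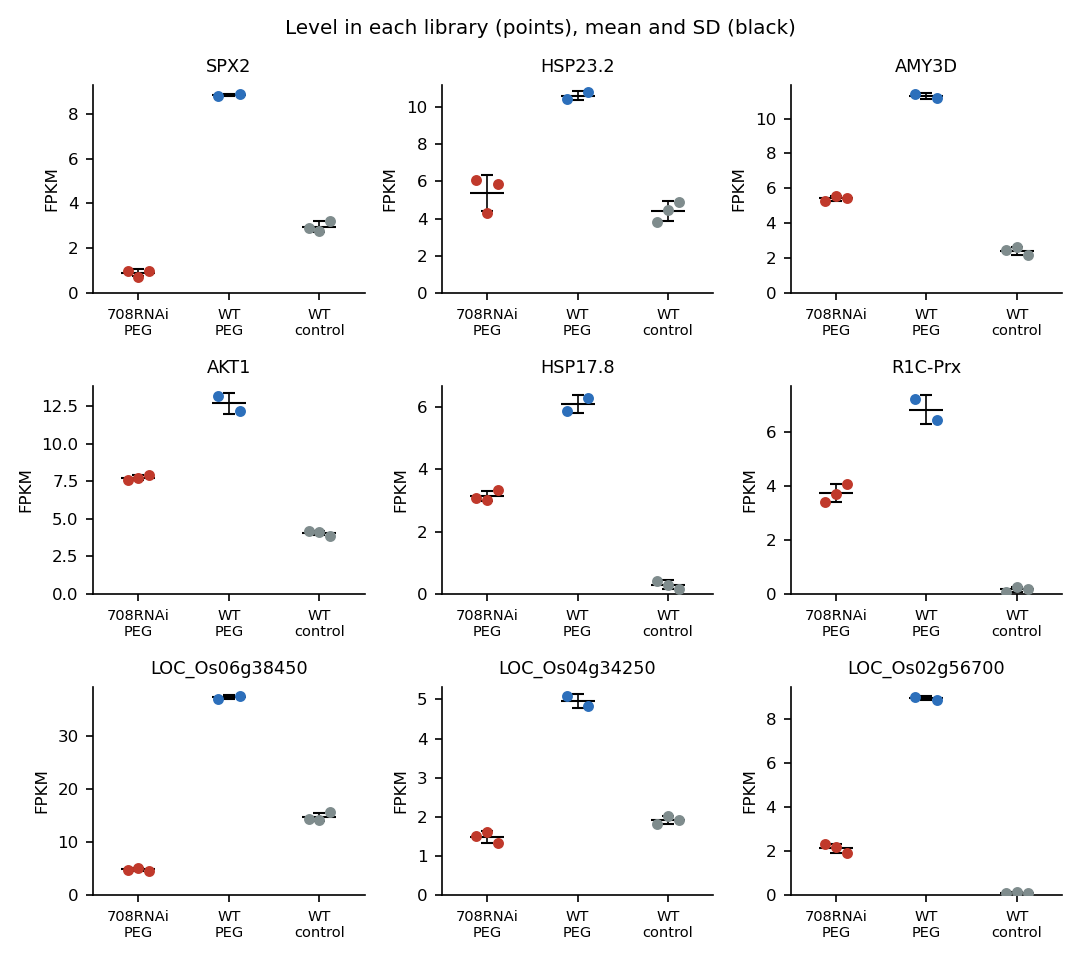
FPKM in each library (points, own scale per panel starting at 0) for the 6 members that the reference names and for LOC_Os06g38450, LOC_Os04g34250 and LOC_Os02g56700, with group means and SD in black. In all 9 panels both WT_PEG libraries lie above every 708RNAi_PEG library, as the rule requires. In SPX2, LOC_Os06g38450 and LOC_Os04g34250 the RNAi line lies below the untreated wild-type.

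The other phosphate genes were mixed. Of 6 tested phosphate genes outside the set, 5 were called lower and 1 higher in WT_PEG than in WT_control, where 36.8% of all loci were called lower and 38.6% higher. In 708RNAi_PEG against WT_PEG, 3 were called higher and 1 lower, where 21.3% of all loci were called higher and 16.4% lower. SPX1, which also restrains PHR2, averaged 3.53 ± 0.0698 FPKM in 708RNAi_PEG (SD, 3 libraries), 4.40 ± 0.339 FPKM in WT_PEG (2 libraries) and 3.28 ± 0.183 FPKM in WT_control (3 libraries). It was called lower in 708RNAi_PEG than in WT_PEG (limma adjusted p = 0.0087), and this call did not hold when WT_PEG replicate 1 was left out (adjusted p = 0.086). SPX4, which holds PHR2 outside the nucleus, was not among the 6 genes counted. SPX4 averaged 10.6 FPKM in 708RNAi_PEG, 9.49 in WT_PEG and 5.92 in WT_control. It was called higher in WT_PEG than in WT_control (limma adjusted p = 5.6e-06) and was not called between the PEG groups. PHR2 averaged 7.92 FPKM in 708RNAi_PEG, 7.04 in WT_PEG and 7.75 in WT_control, and its call as higher in 708RNAi_PEG than in WT_PEG (limma adjusted p = 0.033) changed under 8 of the alternatives. PT2, a low-affinity phosphate transporter, averaged 1.15 FPKM in 708RNAi_PEG, 0.524 in WT_PEG and 3.70 in WT_control, and was called higher in 708RNAi_PEG than in WT_PEG (limma adjusted p = 0.003).

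Among chaperones, the set held 2 small heat shock protein genes. HSP17.8 (LOC_Os02g48140, chromosome 2) had 3.08, 3.02 and 3.33 FPKM in 708RNAi_PEG, 5.87 and 6.28 FPKM in WT_PEG, and 0.432, 0.298 and 0.148 FPKM in WT_control. Below WT_PEG, which the rule sets apart, every 708RNAi_PEG library lay above every WT_control library. The return of HSP17.8 was 50.7% ± 2.91 (SD, n = 3), so the RNAi line stood midway. HSP23.2 (LOC_Os04g36750, chromosome 4) had 6.05, 4.29 and 5.84 FPKM in 708RNAi_PEG, 10.4 and 10.8 FPKM in WT_PEG, and 3.83, 4.46 and 4.91 FPKM in WT_control. Here replicate 2 of the RNAi line lay within the untreated range and the other libraries of the line above it, and the return of HSP23.2 was 83.9% ± 15.5, the widest spread of the 57 members.

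The other small heat shock protein genes went both ways. Of 19 tested genes outside the set, 15 were called higher, 3 lower and 1 neither in WT_PEG than in WT_control. Over all loci 38.6% were called higher and 36.8% lower in that comparison. In 708RNAi_PEG against WT_PEG, 8 were called lower, 4 higher and 7 neither, beside 16.4% lower and 21.3% higher over all loci, and across the alternatives the lower calls numbered 5 to 9 and the higher calls 2 to 6. HSP21.9 and HSP26.7 met the rule except for the ceiling. HSP21.9 averaged 5.12 ± 0.831 FPKM in 708RNAi_PEG (SD, n = 3) and 12.6 ± 0.812 in WT_PEG (SD, n = 2), and was listed at 0 in each WT_control library. HSP26.7 averaged 4.37 ± 0.290 FPKM in 708RNAi_PEG, 9.22 ± 0.0152 in WT_PEG and 0.0326 ± 0.0223 in WT_control.

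HSP16.9B was also lower in the RNAi line, at 6.76, 6.32 and 6.99 FPKM in 708RNAi_PEG, 9.13 and 10.6 FPKM in WT_PEG, and 2.21, 2.64 and 3.08 FPKM in WT_control. HSP18.9, whose difference between WT_PEG and WT_control was not called here and was called higher under 3 alternatives, averaged 4.26 FPKM in 708RNAi_PEG, 9.81 in WT_PEG and 8.58 in WT_control. The opposite direction was held by HSP18.1, at 117 ± 2.54 FPKM in 708RNAi_PEG, 92.0 ± 0.0107 in WT_PEG and 2.03 ± 0.268 in WT_control, and by HSP16.6, at 1.21 FPKM in 708RNAi_PEG, 0.417 in WT_PEG and 0.0892 in WT_control. The calls of HSP16.9B, HSP18.9, HSP21.9, HSP26.7, HSP18.1 and HSP16.6 between 708RNAi_PEG and WT_PEG held under every alternative tried. HSP16.6, counted among those called higher, passed the filter on low values only through its 708RNAi_PEG libraries. The filter thus favoured a higher call at HSP16.6. Several of these genes are adjacent and alike in sequence, so the division of reads between them is uncertain. Of 16 genes of heat shock transcription factors, a family whose class A members activate such chaperones, 14 were called higher in WT_PEG than in WT_control (38.6% over all loci). In 708RNAi_PEG against WT_PEG 8 of the 16 were called higher (21.3% over all loci), 1 lower (16.4%) and 7 neither.

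**Figure D5:**
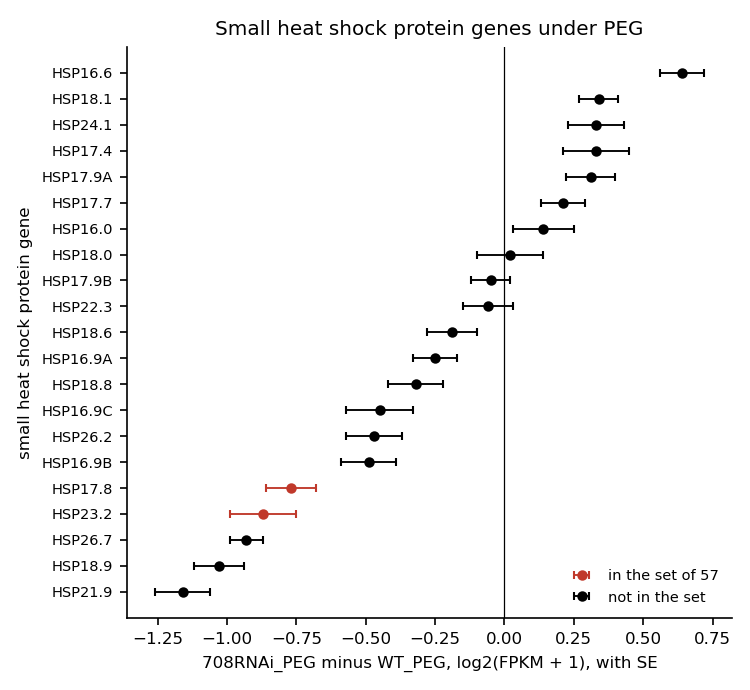
Difference between 708RNAi_PEG and WT_PEG on the log2(FPKM + 1) scale with its standard error for 21 tested small heat shock protein genes, those in the set of 57 in red. The genes spread from -1.16 at HSP21.9 to 0.64 at HSP16.6. HSP17.8 and HSP23.2 lie toward the lower end, where the limit of the rule on their ratio places them.

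AMY3D (LOC_Os08g36910, chromosome 8) encodes an alpha-amylase whose gene is known in rice cells for its induction by sugar starvation. It had 5.27, 5.56 and 5.47 FPKM in 708RNAi_PEG, 11.4 and 11.2 FPKM in WT_PEG, and 2.44, 2.64 and 2.19 FPKM in WT_control. The rule sets WT_PEG above both other groups, and beyond that every 708RNAi_PEG library lay above every WT_control library. The return of AMY3D was 66.0% ± 1.69 (SD, n = 3). Its length recovered from the FPKM steps was 2858 bp against a span of 2249 bp in the reference, so the gene model differs from the one named there.

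The other alpha-amylase genes differed from AMY3D and among themselves. Its neighbour AMY3E (LOC_Os08g36900) averaged 4.36 ± 0.103 FPKM in 708RNAi_PEG (SD, 3 libraries), 6.09 ± 0.993 FPKM in WT_PEG (2 libraries) and 1.35 ± 0.104 FPKM in WT_control (3 libraries), and was called lower in 708RNAi_PEG than in WT_PEG (limma adjusted p = 0.0046). The 3 remaining tested genes, AMY1A, AMY2A and AMY3B, were called higher in 708RNAi_PEG than in WT_PEG. AMY3B passed the filter on low values only through 708RNAi_PEG, at 1.96, 1.85 and 2.11 FPKM against 0.318 and 0.391 FPKM in WT_PEG. The filter thus favoured a higher call at AMY3B. Its recovered length was 8911 bp against a span of 1719 bp in the reference, so its gene model differs as well. AMY1A, the main amylase of germinating grain, had 294, 290 and 316 FPKM in 708RNAi_PEG, 37.0 and 45.2 FPKM in WT_PEG, and 56.8, 56.9 and 60.1 FPKM in WT_control (limma adjusted p = 5.2e-08 between the PEG groups). The division of reads between the related neighbours AMY3D and AMY3E is uncertain.

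AKT1 (LOC_Os01g45990, chromosome 1), the inward potassium channel of rice roots, had 7.58, 7.74 and 7.90 FPKM in 708RNAi_PEG, 13.2 and 12.2 FPKM in WT_PEG, and 4.18, 4.11 and 3.89 FPKM in WT_control. Below WT_PEG, which the rule sets apart, the 708RNAi_PEG libraries all lay above the WT_control libraries. The return of AKT1 was 57.5% ± 1.87 (SD, n = 3). With 2760 or more reads in each WT_PEG library AKT1 was among the more deeply covered members.

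The potassium transporters of the HAK family were mixed. Of 9 tested genes, 6 were called higher in WT_PEG than in WT_control (38.6% over all loci), 2 lower (36.8%) and 1 neither, and the higher call of HAK2 was lost under 10 alternatives. Between 708RNAi_PEG and WT_PEG 4 were called higher (21.3% over all loci), 3 lower (16.4%) and 2 neither. HAK16 (LOC_Os03g37840) came nearest to AKT1, with 5.41, 5.80 and 6.04 FPKM in 708RNAi_PEG, 8.70 and 8.52 FPKM in WT_PEG, and 3.71, 3.78 and 3.71 FPKM in WT_control. Its highest 708RNAi_PEG library was 0.709 times its lowest WT_PEG library, just outside the limit. HAK1 and HAK5, high-affinity transporters of root uptake, averaged 13.7 and 2.85 FPKM in 708RNAi_PEG, 8.68 and 1.26 FPKM in WT_PEG, and 9.11 and 1.75 FPKM in WT_control. Both were called higher in 708RNAi_PEG than in WT_PEG (limma adjusted p = 3.2e-05 for HAK1 and 3.9e-05 for HAK5). The lower calls of HAK2 and HAK23 were lost without WT_PEG replicate 1 (adjusted p = 0.21 for HAK2 and 0.078 for HAK23), which left HAK16 as the 1 lower call.

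R1C-Prx (LOC_Os07g44430, chromosome 7) encodes a 1-Cys peroxiredoxin, a peroxide-reducing enzyme known from cereal embryos and aleurone. It had 3.43, 3.71 and 4.09 FPKM in 708RNAi_PEG, 7.22 and 6.47 FPKM in WT_PEG, and 0.0888, 0.257 and 0.170 FPKM in WT_control. The untreated seedlings had hardly any of this transcript, and the RNAi line reached about the middle of the increase, with a return of 46.4% ± 4.95 (SD, n = 3). Summed FPKM of 10 seed storage protein genes ran from 60.7 to 69.7 in 708RNAi_PEG, from 2.46 to 4.78 in WT_PEG and from 2.87 to 2.92 in WT_control, the reverse of R1C-Prx between the PEG groups, with the name of 6 of the 10 loci held by the reference. The adjacent locus LOC_Os07g44440, named here after its values were seen, had 300, 288 and 294 FPKM in 708RNAi_PEG, 318 and 288 FPKM in WT_PEG, and 45.7, 45.9 and 49.2 FPKM in WT_control, and its 708RNAi_PEG mean was 0.97 times its WT_PEG mean.

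LOC_Os02g56700 was the most strongly induced member, at 78.4 times the untreated mean. Its library of fewest reads, an untreated one, held 9 reads, so the size of this ratio is imprecise. It had 2.32, 2.18 and 1.91 FPKM in 708RNAi_PEG, 9.02 and 8.89 FPKM in WT_PEG, and 0.114, 0.140 and 0.0891 FPKM in WT_control. The RNAi line reached 0.238 times WT_PEG, and LOC_Os02g56700 came under the 16-fold ceiling only through these lower RNAi libraries. The same held for R1C-Prx, LOC_Os02g01590 and LOC_Os04g25490 and for some members not named here. Both of their WT_PEG libraries lay over the ceiling, so their membership needed a low RNAi library. LOC_Os06g51440 and LOC_Os07g19210 followed in the order of weakening, with 0.337 and 0.369 times WT_PEG. LOC_Os06g51440 averaged 0.724 FPKM in 708RNAi_PEG, 2.15 in WT_PEG and 0.172 in WT_control. LOC_Os07g19210 averaged 1.81 FPKM in 708RNAi_PEG, 4.92 in WT_PEG and 0.654 in WT_control.

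Of the 6 members with the highest WT_PEG mean, 5 returned less than the median of 62.5%. The lowest return that the rule allows has to be read beside this, with its median of 39.4% over the 57. It was 31.1% at LOC_Os02g01590, 32.5% at LOC_Os02g33380, 32.1% at LOC_Os12g42220 and 31.9% at LOC_Os01g70850. At LOC_Os11g12530 and LOC_Os06g38450 it was 49.5% and 49.7%. LOC_Os02g01590 had 260, 260 and 252 FPKM in 708RNAi_PEG, 419 and 442 FPKM in WT_PEG, and 16, 15.5 and 15.5 FPKM in WT_control. LOC_Os02g33380 had 136, 117 and 142 FPKM in 708RNAi_PEG, 222 and 251 FPKM in WT_PEG, and 17.0, 16.5 and 21.1 FPKM in WT_control. Both stood far above the untreated range in the RNAi line, with returns of 41.7% ± 1.18 and 48.1% ± 6.0 (SD, n = 3). LOC_Os12g42220 had the smallest return, 33.6% ± 1.08, at 35.9, 36.8 and 36.8 FPKM in 708RNAi_PEG, 52.8 and 53.7 FPKM in WT_PEG, and 3.65, 3.41 and 3.41 FPKM in WT_control. LOC_Os01g70850 returned 40.5%, LOC_Os04g25490 40.3% and LOC_Os04g24804 41.0%. LOC_Os11g12530, with a mean of 34.9 FPKM in WT_PEG, returned 57.8%, and LOC_Os06g38450 was the exception, with the largest return of the 57.

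At the other end, the 708RNAi_PEG libraries of 3 members besides HSP23.2 overlapped the untreated libraries in part or in full. LOC_Os06g48800 had 1.07, 0.809 and 1.11 FPKM in 708RNAi_PEG, 2.48 and 2.34 FPKM in WT_PEG, and 1.16, 0.792 and 0.967 FPKM in WT_control, a return of 98.3% ± 11.3. LOC_Os10g41870 had 1.27, 1.33 and 1.30 FPKM in 708RNAi_PEG, 2.75 and 3.00 FPKM in WT_PEG, and 0.991, 1.22 and 1.32 FPKM in WT_control, a return of 93.0% ± 1.75. LOC_Os01g09665 returned 92.4% ± 5.26 from a WT_PEG mean of 2.29 FPKM. All 3 were near the lower limit of 2 FPKM in WT_PEG, and their 708RNAi_PEG means were 1.02, 1.10 and 1.15 times their WT_control means.

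At the 0.7 limit, the highest 708RNAi_PEG library was 0.697 times the lowest WT_PEG library at LOC_Os12g42220 and LOC_Os09g09944, and 0.691 times at LOC_Os12g02080. Just outside stood LOC_Os01g72910 at 0.704, LOC_Os06g49340 at 0.708 and HAK16 at 0.709. Their returns of 48.2%, 53.1% and 58.6% lay within the range of the members. A further 6 loci, HSP21.9 and HSP26.7 among them, met every condition except the ceiling.

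The WT_PEG mean of the members ranged from 2.14 to 431 FPKM, with a median of 6.84 FPKM, and 19 members lay under 5 FPKM, 21 over 10 FPKM and 9 over 20 FPKM. The fewest reads of a member in a WT_PEG library ranged from 65 to 64047, with a median of 457. Over all libraries the fewest reads of a member ranged from 4 to 3983, with a median of 82. The members were also shorter, with a median recovered length of 1850 bp, against 2337 bp over the PEG-induced loci and 3127 bp over all loci tested. These are descriptions without a test.

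The members were scattered over all 12 chromosomes. Chromosome 2 carried 9 of them, or 15.8%, against 10.6% of the PEG-induced loci, and chromosome 3 carried 3, or 5.26%, against 13.3%. Chromosomes 1 and 4 carried 8 each, chromosome 7 carried 7, chromosome 8 carried 6, chromosome 6 carried 5 and chromosome 9 carried 3. Chromosomes 5, 10, 11 and 12 carried 2 each. No members were neighbours, since the closest pair on a chromosome differed by 655 in locus number. LOC_Os12g02080 and LOC_Os11g02130 (named after its values were seen) lie near the beginnings of chromosomes 12 and 11, which in rice carry a duplicated segment. LOC_Os12g02080 averaged 3.85 FPKM in 708RNAi_PEG, 5.99 in WT_PEG and 2.67 in WT_control, and LOC_Os11g02130 averaged 2.33, 3.87 and 0.807 FPKM in the same groups. Whether they are copies that share reads was not tested.

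Lists of stress, hormone, nutrient, transport and clock genes and of tissue markers held 252 loci of the table. Of these, 70 were among the 1917 PEG-induced loci and 1 of the 70, SPX2, was a member, beside 2.97% over all PEG-induced loci. With 1 member among the 70, these shares cannot be told apart. The ratio of 708RNAi_PEG to WT_PEG over the 70 ran from 0.102 to 3.70, with a median of 1.23. Of 8 clade A protein phosphatase genes, which hold abscisic acid signalling in check, 5 were among the PEG-induced loci under the ceiling, and their ratios ran from 0.964 to 1.04. Between 708RNAi_PEG and WT_PEG, 3 of the 8 were called higher (21.3% over all loci), 0 lower (16.4%) and 5 neither. The 3 called higher were PP2C30, PP2C68 and PP2C51, none of them among the 5 under the ceiling. The call of PP2C68 changed under 3 alternatives. Of 9 late embryogenesis abundant protein genes only 1, LIP9, was under the ceiling, and the other 8 exceeded it in both genotypes under PEG. Between 708RNAi_PEG and WT_PEG, 5 of the 9 were called higher (21.3% over all loci), LIP9 among them. Another 1, RAB16D, was called lower (16.4% over all loci), and 3 were called neither. LIP9 averaged 1809 FPKM in 708RNAi_PEG, 1115 FPKM in WT_PEG and 113 FPKM in WT_control.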

How the data were processed

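The 8 libraries were stranded and made from polyA-selected seedling RNA, per the labels' protocols. The authors deposited 1 table of FPKM values per locus and library, their group means, log2 fold changes and p-values; only the FPKM values of single libraries were used here. Per the submitters' processing notes the tools included HISAT2, featureCounts and DESeq2; roles and versions are absent there. The sources used here give no genome build, annotation or strand setting of the counting, so overlapping antisense loci may share reads.

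Groups and replicate numbers came from the titles. The members, gene lists and tests were chosen with earlier results of these data known. The lists of small heat shock, amylase, SPX, potassium and peroxiredoxin genes were written once the members were known. Names were used only where the reference (assembly ASM3414082v1, in which 0 of the locus identifiers occur) holds the name on the same chromosome and in order, which was so for 219 of 285 listed loci in the table, 188 of them with a span within 10%. Members named in the text were those with such a name, the 6 with the highest WT_PEG mean, the 6 with the lowest ratio, the 5 highest and 5 lowest returns, and the 3 on each side of the 0.7 limit.

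Whole reads were recovered from the FPKM steps for 34119 of 34119 rows within 0.03 reads. The reads came to 86.97% to 103.32% of the FPKM denominators, lowest in WT_control. Loci with at least 1 FPKM in at least 2 libraries (20943) entered limma 3.58.1 (R 4.3.3) on the log2(FPKM + 1) scale (variance trend, 3 groups in 1 model, 5 residual degrees of freedom, two-sided, Benjamini-Hochberg adjusted p under 0.05 over all loci), after a test on simulated data. Differences on this scale understate changes of low loci. WT_PEG has 2 libraries, which limits the precision of every value set against it. Recovered lengths follow the whole gene span, introns included, so levels are not compared between genes, apart from the rank by WT_PEG mean used to choose members to name.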

Additional observations from a re-analysis of the deposited data

How the results depend on the processing

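The number of loci follows the limits of the rule. It was 57 as reported, 86 with a PEG increase of at least 1.5 times and 31 with at least 3 times, 23 with an RNAi ratio of at most 0.6 and 99 with at most 0.8, and 36 with at least 5 FPKM in WT_PEG. With equal totals of recovered reads it was again 57, of which 49 were shared, and with equal medians 53, of which 51 were shared. The median return was 62.5% as reported, 67.4% with equal totals and 49.1% on the log2(FPKM + 1) scale; the scale of the formula sets the last value. Leaving out each library in turn gave 56 to 81 loci, a median return of 59.6% to 64.3%, 50 to 51 members above WT_control, 48 to 50 called higher than WT_control and 3 to 3 called lower. The highest number came without WT_PEG replicate 1, which leaves 1 WT_PEG library to meet the rule. Calls against WT_control were 46 higher with equal totals and with limma-voom on recovered reads, which was chosen after seeing the data, and 3 were lower under every alternative. Correlations of deviations between libraries of the same replicate number ran from -0.23 to 0.36, with 3 of 7 over 0.1. Deviations within such small groups are tied to each other, so these correlations cannot decide whether the numbers pair the libraries. With the replicate block 50 members were called higher and 3 lower, as without it. edgeR and DESeq2 on recovered reads were planned and not run, because the deposited unit is FPKM. Depth limits the members of fewest reads: 54 of the 57 had at least 100 reads in each WT_PEG library.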
